A study of Homo sapiens with 17 samples.

Results

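The genes FOXA1, FOXA2 and FOXA3 encode the FOXA family of forkhead transcription factors, and all 3 were taken by name from 19974 protein-coding genes on chromosomes 1 to 22 and X. In the human GRCh38 assembly, FOXA1 lies on chromosome 14 at 37589552 to 37595249 (5698 bp), FOXA2 on chromosome 20 at 22580998 to 22585490 (4493 bp) and FOXA3 on chromosome 19 at 45864326 to 45873797 (9472 bp). For each gene, every peak of FOXA1 and of the AP-1 subunit FOSL2 was collected that touched the gene or the 100 kb on either side, and the bases of the gene under the repressive marks H3K27me3 and H3K9me3 were counted. FOXA1 is therefore both a gene described here and the protein whose binding was mapped.

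All profiles came from ChIP-seq, the sequencing of DNA fragments pulled down with an antibody to the bound protein or mark. The cells were A549, an established line grown from a human lung carcinoma. Unmodified cells (WT, untreated) gave 2 libraries each for FOXA1, H3K27me3 and H3K9me3. A derived line in which A-Fos had been integrated with the piggyBac transposon gave 2 libraries each for FOXA1 and FOSL2 (antibody to Fra2, the FOSL2 protein) without treatment and 2 each after 48 h with 1 µg/mL doxycycline. A-Fos is a dominant-negative Fos that pairs with AP-1 subunits and keeps them off DNA. Both arms of that comparison carry the A-Fos insertion, no histone mark was mapped in that line, and no doxycycline-treated cells lacking A-Fos were analysed here, so the drug and A-Fos cannot be told apart. The labels do not say whether the line was a clone or a pool. The libraries are called biological replicates in the titles. Each p-value below is the share of exchanges of libraries between the arms that gave a difference at least as large. It rests only on the 2 libraries of each arm.

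FOXA proteins are called pioneer factors because they can bind their forkhead sites in closed chromatin and make them accessible to other factors. They are needed for the formation of foregut organs, and in lung epithelium they act on surfactant and secretory protein genes. AP-1, a dimer of Fos and Jun family proteins, binds a short palindromic site. H3K27me3 is laid down by Polycomb complexes on silent developmental genes, and H3K9me3 marks heterochromatin.

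Peak lists give no read counts, so the depth behind each call is unknown. The FOXA1 lists of WT cells held 49448 and 80318 peaks, those of the A-Fos line held 7633 and 13247 without doxycycline and 11112 and 15065 with it, and the FOSL2 lists held 45586 and 14842 without and 1854 and 5274 with doxycycline. A peak absent from a shorter list was not called there, which does not show that the protein was absent. Fold enrichments are the authors' own values for each peak and are used with their percentile inside the same list.

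Promoter sequences were read from a RefSeq table for GRCh38.p14, from 250 bases before to 50 bases after the annotated start, 5′ to 3′ on the transcribed strand. Those shown were chosen because a FOXA1 peak of WT cells overlapped each window by at least 1 bp and spanned the letters in capitals: those of FOXA1 (chr14:37595200-37595499, minus strand), FOXA3 (chr19:45864076-45864375, plus strand) and LINC00261 (chr20:22578593-22578892, minus strand), a long non-coding RNA gene beside FOXA2. Capitals mark a forkhead motif (TGTTTNC, on either strand) in FOXA1 and LINC00261. In FOXA3 they mark a match to a loose AP-1 pattern (TGANTCA, on either strand). N stands for any base, and the middle base of the FOXA3 match is A. The motifs cannot overlap in these windows, since each window held 1 match in all.
FOXA1: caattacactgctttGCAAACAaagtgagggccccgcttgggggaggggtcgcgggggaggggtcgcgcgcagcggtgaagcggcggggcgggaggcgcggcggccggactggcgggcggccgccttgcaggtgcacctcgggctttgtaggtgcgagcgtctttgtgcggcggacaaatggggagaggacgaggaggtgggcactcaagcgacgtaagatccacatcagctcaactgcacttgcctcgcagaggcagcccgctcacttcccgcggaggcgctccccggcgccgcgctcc
FOXA3: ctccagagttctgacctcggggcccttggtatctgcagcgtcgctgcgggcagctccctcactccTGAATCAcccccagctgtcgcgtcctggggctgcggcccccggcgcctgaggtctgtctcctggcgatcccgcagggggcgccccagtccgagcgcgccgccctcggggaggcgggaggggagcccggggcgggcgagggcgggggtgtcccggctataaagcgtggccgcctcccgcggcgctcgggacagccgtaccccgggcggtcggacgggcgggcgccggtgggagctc
LINC00261: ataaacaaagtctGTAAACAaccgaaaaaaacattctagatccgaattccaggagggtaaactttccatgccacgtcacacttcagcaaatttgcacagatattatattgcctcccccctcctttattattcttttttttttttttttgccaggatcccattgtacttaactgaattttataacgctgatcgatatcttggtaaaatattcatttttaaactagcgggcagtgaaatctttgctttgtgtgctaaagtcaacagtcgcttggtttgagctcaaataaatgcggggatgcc
The forkhead motif was present in 18% of 35116 RefSeq promoters of 300 bases and the AP-1 pattern, with any middle base, in 7.71%. The FOXA1 and FOXA3 windows were rich in G and C, at 69.3% and 76.3%, and the LINC00261 window was poor in them, at 37%, beside a median of 58.7% over all promoters. A match is a description of the letters and not a measured binding site.

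At the promoters shown, FOXA1 summits lay 2 to 11 bp from the middle of the forkhead matches. These promoters were chosen for a peak spanning the letters, which favours short distances, and no distance by chance was counted. At the FOXA1 promoter, the peak of the second WT library had its summit 3 bp from the middle of the capital letters, with a fold enrichment of 8.66 at percentile 72.8 of its list. At the LINC00261 promoter, the summits lay 11 bp and 2 bp from the middle of the match in the first and second WT libraries. At the FOXA3 promoter, the summit of the second WT library lay 43 bp from the middle of the AP-1 match, inside a weak peak of 3.65-fold at percentile 22.8. No FOSL2 peak of any library overlapped the 3 promoter windows.

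In WT cells, FOXA1 occupied the surroundings of the FOXA1 and FOXA2 genes at more places than those of the median gene. The FOXA1 gene had 9 FOXA1 peaks in the first WT library and 12 in the second, the FOXA2 gene 13 and 19, and the FOXA3 gene 3 and 18. Medians over all genes were 4 and 7. FOXA2 was thus above the median in both libraries, at percentiles 93.8 and 87.9 of all genes, and FOXA1 at percentiles 84.0 and 71.1. The FOXA3 count was not stable between libraries, at percentiles 40.7 and 86.3.

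**Figure D1:**
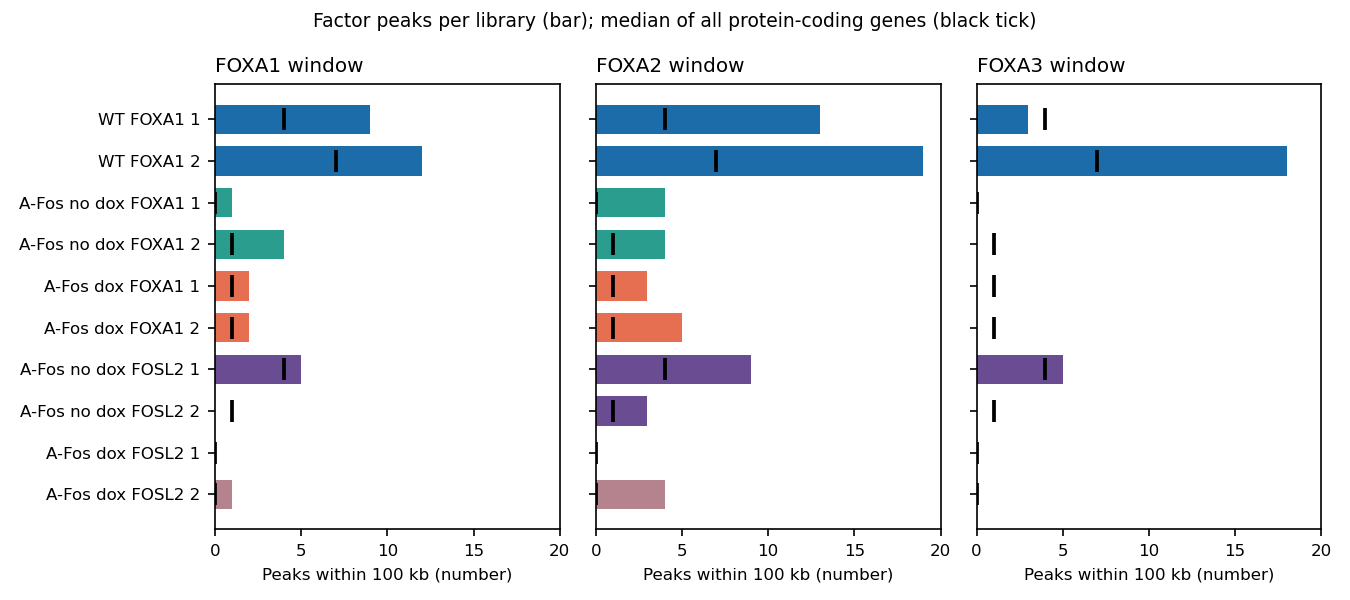
Number of peaks (x axis) within 100 kb of the FOXA1, FOXA2 and FOXA3 genes in each of the 10 FOXA1 and FOSL2 libraries (bars), with the median of all protein-coding genes as a black tick. The FOXA2 window is above the tick in 9 of the 10 libraries and level with it in the first doxycycline FOSL2 library, where both are 0, and the FOXA3 window is empty in all 4 A-Fos FOXA1 libraries.

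Merging the peaks of the 6 FOXA1 lists that shared at least 1 bp gave 54 sites, 13 near FOXA1, 23 near FOXA2 and 18 near FOXA3. Distances given for sites run from the nearer edge of the site to the nearer end of the gene, with below and above meaning lower and higher coordinates. Of these, 33 were called in 1 list only, and 28 only in the second WT library, including 15 of the 18 sites near FOXA3. Merging the 2 WT lists alone, 18 regions were called in both, 6 near FOXA1, 9 near FOXA2 and 3 near FOXA3, beside a median of 3 over all genes. All 3 genes had such a region within 100 kb, as did 83.8% of all genes. Near the gene itself the members parted: FOXA1 and FOXA2 had a region of both WT libraries inside the gene or within 1 kb of it, a state shared by 36.8% of all genes, and FOXA3 had none.

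At FOXA2, which is transcribed from its upper end towards lower coordinates, the site of highest mean percentile over the lists that called it covered the gene's own start (chr20:22583813-22586035, 2223 bp). That mean favours sites called in WT cells alone, and in the WT lists themselves the site 67.7 kb below the gene stood higher, at rank 2400 in the first and 704 in the second, beside 5587 and 3616 for the site at the start. The site at the FOXA2 start had a fold enrichment of 14.8 in the first and 41.1 in the second WT library, at percentiles 88.7 and 95.5. Another site lay at the start of LINC00261 (chr20:22578394-22579484), with 12.8-fold and 25.8-fold enrichment at percentiles 86.2 and 91.9. Neither site was called in any of the 4 FOXA1 lists of the A-Fos line. These sites stood near the top of both WT lists, so the WT lists were also cut to the 7633 highest peaks, the length of the shortest A-Fos list, a comparison chosen after the data were seen. Of 7 regions near the 3 genes that remained in both cut lists, 2 near FOXA1 and 5 near FOXA2, the pair at the FOXA2 start and the LINC00261 start were called in no A-Fos list, a state of 5.94% of 6079 such regions in the genome. WT and A-Fos libraries differ in cell line and in list length together, so these cannot be told apart.

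The FOXA1 gene had a site just beyond its lower end (chr14:37587159-37589222, 0.329 kb away), with 16.8-fold and 23-fold enrichment in the WT libraries and 3.80-fold in the second uninduced A-Fos library. At its start, the site that overlapped the promoter shown above and spanned its capital letters (chr14:37595332-37595746) was called only in the second WT library and reached into TTC6, the neighbouring gene that begins 0.379 kb above FOXA1. A pair of further sites inside the gene were also called in that library alone, both at 3.65-fold and percentile 22.8. Between the FOXA1 start and its nearest upstream site of more than 1 library lay 45.8 kb without one.

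FOXA3 had 3 regions called in both WT libraries, fewer than FOXA1 and FOXA2, and its many peaks in the second WT library had mostly no counterpart in the first. The site nearest its start, 0.073 kb away, was the weak peak of the second WT library described with the promoter, and the site inside the gene was also in that library only, at 4.33-fold. The 3 regions of both WT libraries lay 8.01 kb above the gene, with 4.42-fold and 12.2-fold enrichment, 82.3 kb above it inside the interval of NOVA2, with 3.47-fold and 10.5-fold, and 93.4 kb below it at DMPK and DM1-AS, with 5.34-fold and 12.8-fold. Of the 3 sites of highest mean percentile over the lists that called them, a site 53.9 kb above the gene (7.79-fold, percentile 69.7) and a site 83.7 kb below it (6.15-fold) rested on the second WT library, in which each of the 3 regions above stood at a higher percentile, from 77.9 to 82.1. This gene stands in a crowded stretch with 10 other protein-coding genes and 1 long non-coding RNA gene within 100 kb, while FOXA1 has 2 protein-coding neighbours and FOXA2 has 5 long non-coding RNA genes and no protein-coding one. A peak in the FOXA3 window therefore lies near other genes as well.

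**Figure D2:**
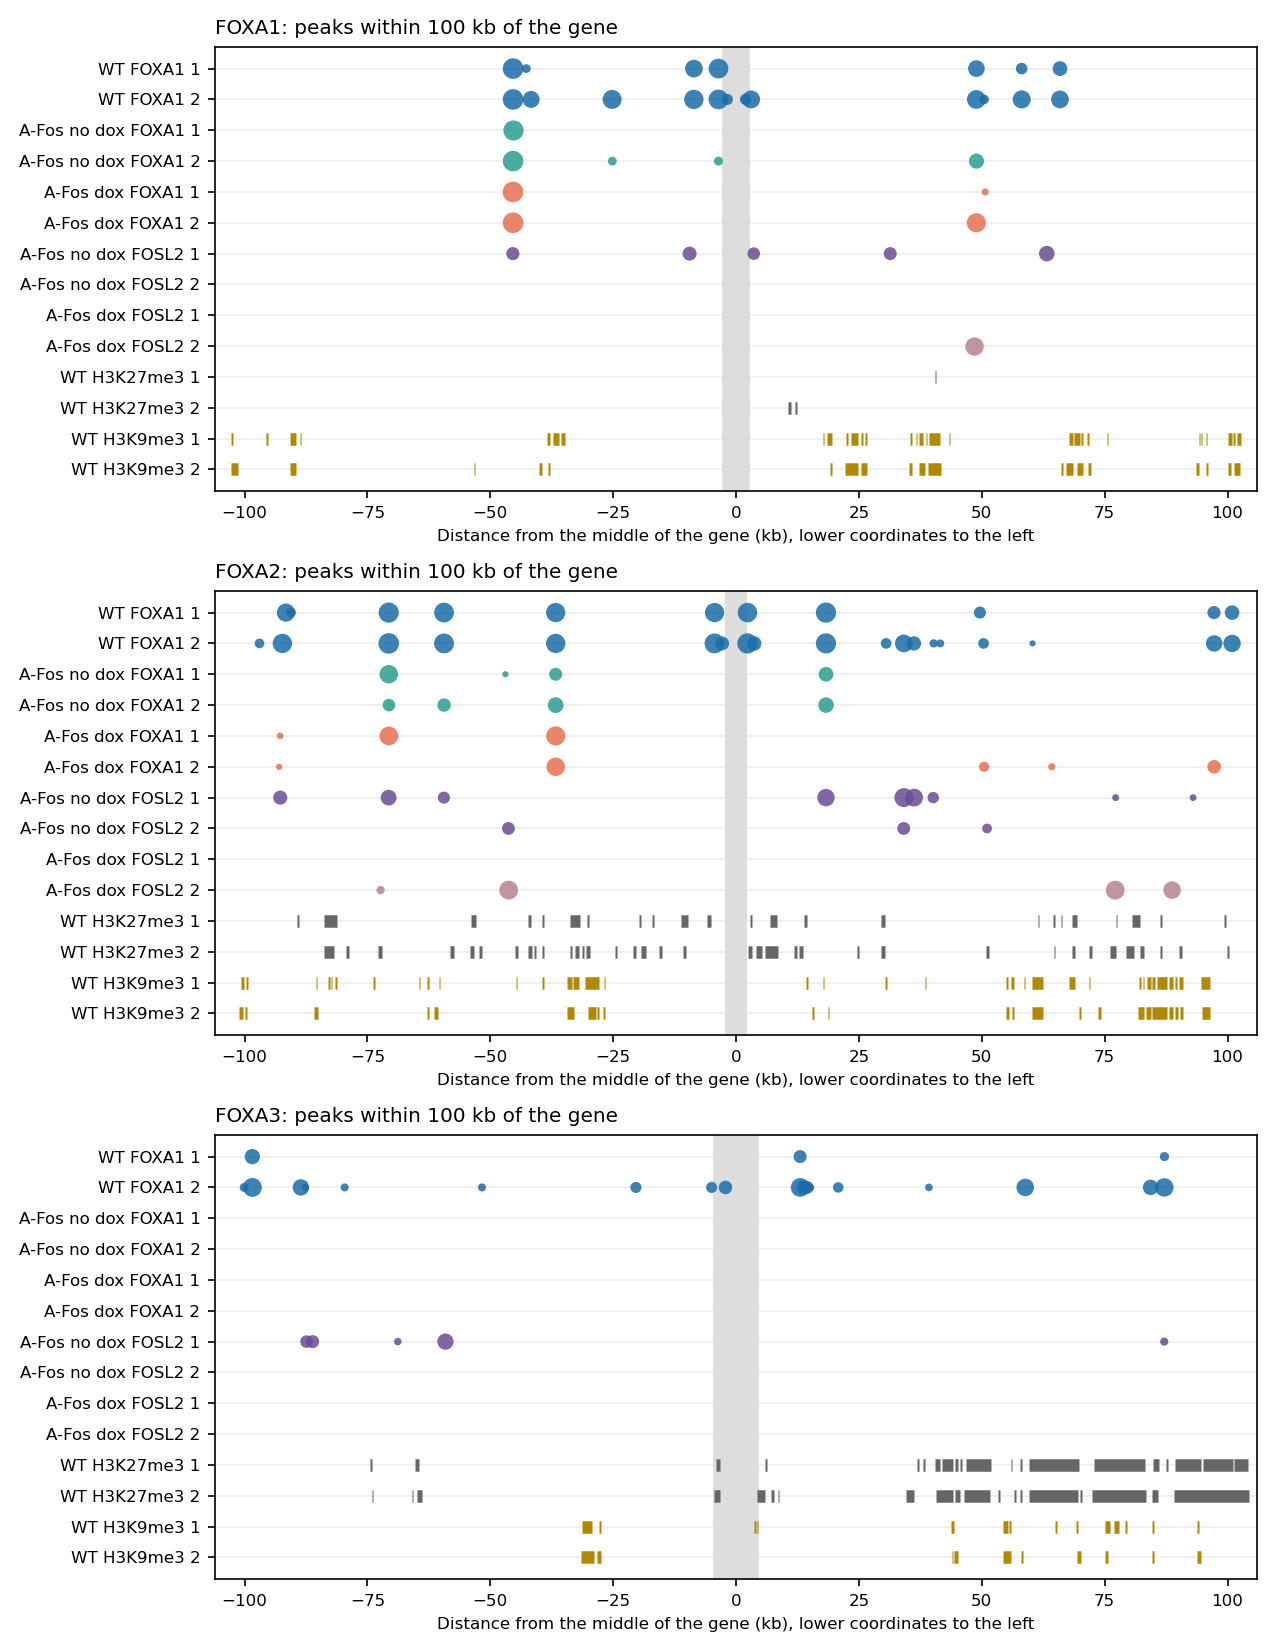
Peaks around the FOXA1, FOXA2 and FOXA3 genes by distance from the middle of the gene in kb (x axis, grey band: the gene) in each of the 14 libraries (rows). Points are summits of FOXA1 and FOSL2 peaks, larger for a higher percentile of fold enrichment within the library, and bars are stretches of H3K27me3 or H3K9me3. A FOXA1 site 42.0 kb below FOXA1 and a site 34.2 kb below FOXA2 appear in all 6 FOXA1 libraries, and no point falls in the A-Fos FOXA1 rows around FOXA3.

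The A-Fos lists, all shorter than the WT lists, shared some of these sites. Of the 54 sites, 14 were called in at least 1 A-Fos FOXA1 list, 5 near FOXA1, 9 near FOXA2 and none near FOXA3, and 2 of the 14, both near FOXA2, were in no WT list. A gene with no FOXA1 peak in any A-Fos list was common, at 31.4% of all genes, and FOXA3 was the 1 member in that state. Of the 18 sites called in both WT libraries, 9 were in at least 1 A-Fos list, 3 near FOXA1 and 6 near FOXA2. The same share over the genome was not counted, so 9 of 18 cannot be called many or few.

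The number of FOXA1 peaks near these genes overlapped between the libraries without and with doxycycline. The FOXA1 window held 1 and 4 peaks without doxycycline and 2 and 2 with it. The FOXA2 window held 4 and 4 without and 3 and 5 with it, and the FOXA3 window held none in all 4. Over the 3 windows, libraries without doxycycline had 6.5 ± 2.12 peaks (SD, n = 2) and those with it 6 ± 1.41 (SD, n = 2), a difference of −0.5 (two-sided exact permutation test, p = 1). The counts overlap, and the sign of this difference turned to 1 without the second uninduced library and to 0.5 without the first doxycycline library. Per 10000 peaks of the list, the 3 windows held 6.55 and 6.04 peaks without doxycycline and 4.5 and 4.65 with it. Summed over the 3 windows, the groups did not overlap on that scale, and the difference was −1.72 (exact permutation test, p = 0.33). No single window parted in this way. The groups overlapped at FOXA1 (difference −0.601) and at FOXA2 (−1.12, exact permutation test, p = 0.667), and the FOXA3 difference was 0. How many other genes part in this way was not counted, so the separation is not shown to be particular to these windows. With the 4 lists cut to the length of the shortest, the difference over the 3 windows was −1.5 (exact permutation test, p = 0.33). For single windows it was 0 at FOXA1, −1.5 at FOXA2 (exact permutation test, p = 0.667) and 0 at FOXA3. With 2 libraries against 2, 0.33 is the smallest p an exact test allows, so neither scale can pass a threshold of 0.05. The test was run for 6 pairs of gene and factor, and every Benjamini-Hochberg adjusted p was 1.

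Single regions behaved differently from one another. Over the 4 A-Fos lists, a region was called kept if present in all 4, lost if present in both libraries without doxycycline and in neither with it, and gained in the opposite case. FOXA1 and FOXA2 each had 1 kept region, FOXA2 also had 1 lost and 1 gained region, and FOXA3 had none of these. Among all genes, 22.8% had a kept region within 100 kb, 14.2% a lost one and 11.1% a gained one. The classes rest on calls and have no test of their own.

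The kept region near FOXA1 was the strongest site of all 3 windows in every FOXA1 library. It lay 42.0 kb below the gene, beyond the gene's 3′ end and inside the interval of MIPOL1 (chr14:37546513-37547556, 1044 bp). Its fold enrichment was 66.5 and 154 in WT cells, 19.4 and 48.7 in the A-Fos line without doxycycline, and 40.5 and 68.4 with it. Its percentile was 99.4 and 99.7, then 95.6 and 99.0, then 99.6 and 99.8 in the same order. It thus stood among the highest peaks of all 6 lists, ranking 291 of 49448 and 268 of 80318 in WT cells, and its summit moved by at most 28 bp between libraries. The first uninduced FOSL2 library had a peak of 4.97-fold there, at percentile 35.5, with its summit 45 bp from that of FOXA1 in the second WT library, and no other FOSL2 library had one.

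The kept region near FOXA2 lay 34.2 kb below the gene, beyond its 3′ end and outside every annotated gene interval (chr20:22546264-22546780, 517 bp). Its fold enrichment was 12.7 and 17.0 in WT cells, 4.76 and 6.85 without doxycycline and 8.57 and 7.97 with it. Percentiles were 86.0 and 86.9, 34.3 and 54.8, and 84.7 and 78.3. The 6 lists were ranked separately, so these percentiles place the site within each list and show no change between them. No FOSL2 library had a peak at this site, and its summits fell within 16 bp over the 6 libraries.

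The lost region lay 15.6 kb above FOXA2, upstream of its start and inside the interval of the long non-coding RNA gene LNCNEF (chr20:22601130-22601840). It had 26.3-fold and 38.9-fold enrichment in WT cells and 5.51-fold and 6.63-fold in uninduced A-Fos cells, at percentiles 95.3, 95.2, 46.7 and 52.6, and was in neither doxycycline list. A FOSL2 peak of the first uninduced library, 9.80-fold at percentile 68.5, had its summit 12 bp away, and no doxycycline FOSL2 library had one. Percentiles of lists of different length show no change in rank, and the site was number 2320 and 3886 in the WT lists.

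The gained region lay in a merged site 89.1 kb below FOXA2 (chr20:22490031-22491912), which both WT libraries also called, at 8.55-fold and 17.2-fold. Summits lay at −89.33 and −90.05 kb from the gene in the WT libraries and at −90.51 and −90.72 kb in the doxycycline libraries. The merged site therefore need not be a single position. Its doxycycline peaks were among the weakest of their lists, 2.67-fold at percentile 2.54 and 2.51-fold at percentile 1.28, and the summits of the 4 libraries spread over 1387 bp. A FOSL2 peak of the first uninduced library, 5.61-fold at percentile 42.3, had its summit at −90.48 kb. This FOSL2 peak overlapped the FOXA1 peaks of both doxycycline libraries and of the second WT library, and no other FOSL2 library had one. Taken as 100 bp either side of each summit, no region near the 3 genes was gained.

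A further pair of sites recurred in at least 4 of the 6 lists. One lay 67.7 kb below FOXA2 inside the uncharacterised LOC105372564 (chr20:22512054-22513304), with 25.7-fold and 101-fold enrichment in WT cells, 9.32-fold and 5.03-fold without doxycycline and 7.66-fold in the first doxycycline library. The other lay 45.8 kb above FOXA1 inside TTC6 (chr14:37641065-37641578), with 6.28-fold and 12.3-fold in WT cells, 6.34-fold in the second uninduced and 9.89-fold in the second doxycycline library. Both were missing from 1 of the doxycycline libraries, and the second also from 1 uninduced library.

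**Figure D3:**
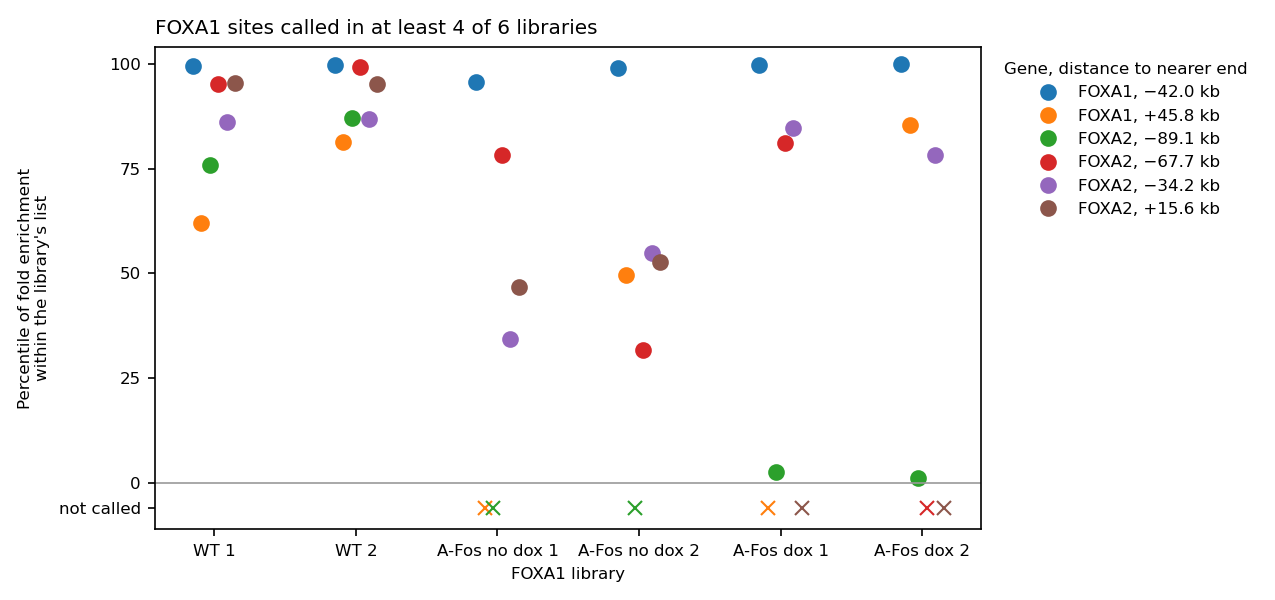
Percentile of fold enrichment within each FOXA1 library's own list (y axis) for the 6 sites near FOXA1 and FOXA2 called in at least 4 of the 6 libraries (x axis), with crosses for sites not called. The site 42.0 kb below FOXA1 is between percentiles 95.6 and 99.8, and the site 89.1 kb below FOXA2 is at percentiles 2.54 and 1.28 of the shorter doxycycline lists; lists of different length were ranked separately.

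FOSL2 peaks near these genes came mostly from 1 library. The first uninduced library had 5 in the FOXA1 window, 9 in the FOXA2 window and 5 in the FOXA3 window, and the second had 0, 3 and 0. The doxycycline libraries had none in the first and 1, 4 and 0 in the second. The means over the 3 windows were 11 ± 11.3 (SD, n = 2) without doxycycline and 2.5 ± 3.54 (SD, n = 2) with it, a difference of −8.5 (two-sided exact permutation test, p = 0.667). The groups overlap, since the second doxycycline library had 5 peaks and the second uninduced library 3. The difference was −0.5 without the first uninduced library and −16.5 without the second. Per 10000 peaks of the list the direction turned to 1.65, and with all FOSL2 lists cut to the length of the shortest it turned to 2. The first uninduced list held more peaks than the other 3 FOSL2 lists together, and the part of list length in this difference was not tested.

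The 24 merged FOSL2 sites comprised 6 near FOXA1, 13 near FOXA2 and 5 near FOXA3. Of them, 17 were called in the first uninduced library alone and 5 in a doxycycline library, 3 of these in no uninduced one. The site nearest a gene start lay 0.631 kb above FOXA1 inside TTC6, at 4.61-fold in the first uninduced library, and no FOSL2 peak of any list touched the body of a FOXA gene. A single region was called in both uninduced libraries, 31.1 kb above FOXA2 (chr20:22616580-22617682), while 55% of all genes had such a region within 100 kb. Its enrichment was 15.8-fold and 3.78-fold, at percentiles 82.9 and 33.3, and neither doxycycline library had it. The second WT FOXA1 library had an 8.41-fold peak there, with its summit 15 bp from the FOSL2 summit.

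FOXA1 and FOSL2 shared part of their sites. Of the 54 FOXA1 sites, 10 overlapped a FOSL2 site, 2 near FOXA1, 7 near FOXA2 and 1 near FOXA3, and all 10 overlapped a peak of the first uninduced library. Of the 18 regions of both WT libraries, 7 overlapped a FOSL2 peak of that library, beside 33.4% of such regions in the genome. Of the 2 kept regions, 1 did, beside 47.9%. Summits of the second WT FOXA1 library and the first uninduced FOSL2 library were within 50 bp of each other in 7 of 10 overlapping pairs, beside 37.3% of 19834 pairs in the genome. The 50 bp limit was set after these values were seen. It falls between gaps of 45 bp and 89 bp, which favours a high share in these windows. The median gap was 29.5 bp in the 3 windows and 74 bp in the genome. FOSL2 was mapped in the A-Fos line and this FOXA1 library in WT cells, so the pair of proteins was compared across lines.

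The FOXA1 and FOXA2 gene bodies held no base under either repressive mark, and the FOXA3 body was covered in part. The median H3K27me3 cover over all genes was also 0%. Shares of all genes given here were not matched for gene length. H3K27me3 covered 0% of FOXA1 and of FOXA2 in both libraries, and 8% and 16.2% of FOXA3, where 758 bases were shared by both libraries. A gene with any base under H3K27me3 in both libraries was a state of 28.3% of all genes, and FOXA3 was the 1 member in it. H3K9me3 covered none of the 3 genes except 6.58% of FOXA3 in the first library, so no member had a base under it in both libraries, beside 36.8% of all genes. No member was covered over at least 50% of its length by H3K27me3 in both libraries, as 4.23% of all genes were, or by H3K9me3, as 1.97% were.

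The surroundings differed more than the genes. Within 100 kb, H3K27me3 covered 0.140% and 0.396% of the FOXA1 window, 9.29% and 13.3% of the FOXA2 window and 23.4% and 26.5% of the FOXA3 window, beside medians of 3.65% and 5.37% over all genes. The order of the 3 genes was the same in both libraries, with FOXA1 at percentiles 15.4 and 16.5 and FOXA3 at percentiles 90.5 and 88.4. Near FOXA3, 13 of the 16 stretches marked in both libraries lay above the gene, the longest of 10365 bp at 68.2 kb, in the interval of NOVA2, a neuronal splicing factor gene. Both FOXA2 and FOXA3 had the mark within 1 kb of their start. At FOXA2, 22.3% and 34.1% of the 2 kb around its start were covered by peaks that began 0.554 kb and 0.251 kb outside the gene, the first a weak peak at percentile 4.57 of its list. At FOXA3, 15.2% and 32.9% of the 2 kb around its start were covered, and 0% and 69.5% around its other end, where the libraries differed. H3K9me3 covered 9.04% and 9.45% of the FOXA1 window, 11.7% and 10.0% of the FOXA2 window and 4.35% and 4.48% of the FOXA3 window, beside medians of 3.66% and 3.03%. Both the FOXA1 and the FOXA2 window stood at or above percentile 81.6 in each H3K9me3 library, with the nearest stretch of both libraries 16.3 kb from FOXA1 and 24.5 kb from FOXA2.

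**Figure D4:**
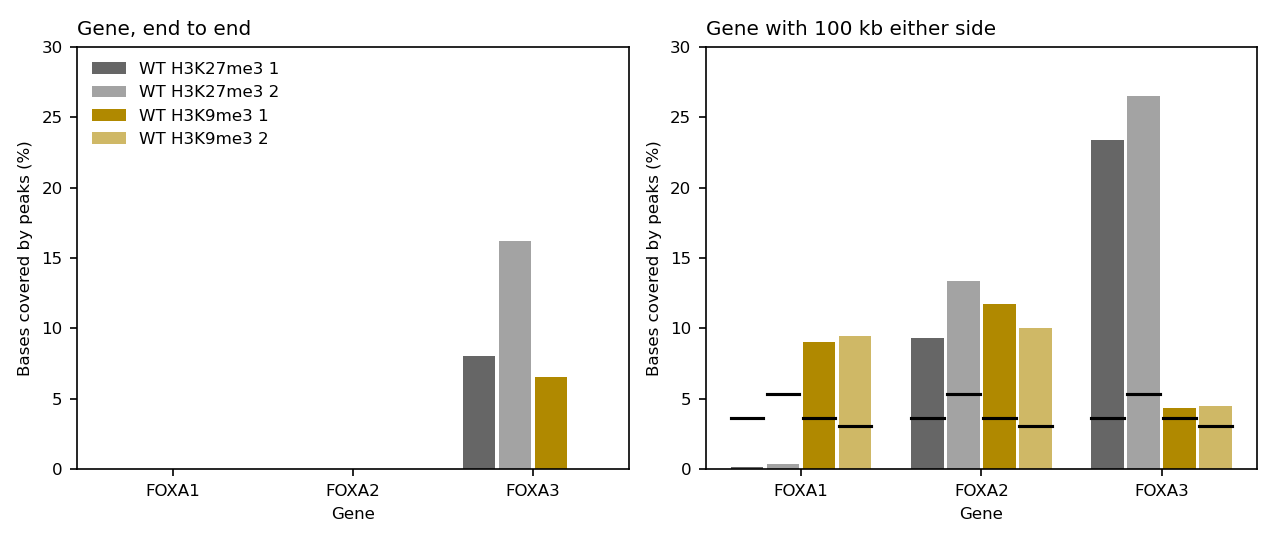
Percent of bases covered by H3K27me3 and H3K9me3 peaks (y axis) in FOXA1, FOXA2 and FOXA3 from end to end and in the gene with 100 kb either side, for each of the 4 WT histone libraries (bars), with the median window of all genes as a black line. FOXA3 alone has cover inside the gene, and H3K27me3 in its window reaches 23.4% and 26.5%, above both other genes.

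Most FOXA1 and FOSL2 sites lay outside both marks, as they did in the genome. Of the 54 FOXA1 sites, 49 touched neither, beside 81.3% of all 101644 FOXA1 sites, while 2 touched an H3K27me3 peak and 4 an H3K9me3 peak of at least 1 library. One of the 2 was the site over the FOXA2 start, which touched an H3K27me3 peak of the second library. Of the 24 FOSL2 sites, 20 touched neither, beside 75.3% of all 56430 FOSL2 sites.

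Genes that work with or under FOXA factors were described from a pair of lists. The partner list held 25 transcription factors of foregut, lung, liver and hormone response, and the target list held 28 genes known as FOXA targets in lung, gut, liver or prostate. A region of both WT libraries lay within 100 kb of all 25 partners and of 27 of the 28 targets, beside the 83.8% given above, and the median number of such regions was 6 per partner and 4.5 per target, beside 3. Kept regions lay near 11 of the 25 partners and 8 of the 28 targets, lost regions near 5 and 6, and gained regions near 3 and 4, beside 22.8%, 14.2% and 11.1% of all genes. These are counts of genes, so genes that lie near each other can count 1 region more than once. MUC5AC and MUC2, for example, each had a lost region of the same mean percentile, 27.35. FOSL2 regions of both uninduced libraries lay near 16 partners and 20 targets, beside 55%. No FOXA1 peak of any A-Fos list lay near 2 partners and 5 targets, the state of FOXA3.

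Among partners, GRHL2, an epithelial transcription factor, had 5 kept regions, the best inside the gene at a mean percentile of 98.9. KLF5, a Krüppel-like factor of epithelium, had a kept region 60.7 kb away at mean percentile 90.8. Among targets, SCGB3A2, a secretoglobin of the airway, had a kept region 42.7 kb away at mean percentile 99.9, while 82.6% of the gene was under H3K27me3 in both libraries. AGR2, a protein disulfide isomerase of mucus-producing cells, had 2 kept regions, the best at 95.0. SFTPB, which encodes surfactant protein B, had 2 lost regions, the best 38.6 kb away at mean percentile 75.2, and CFTR, the chloride channel gene, had 2 kept and 3 lost ones.

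H3K27me3 covered any base of 9 partners and 10 targets in both libraries, beside 28.3% of all genes, and at least 50% of 3 partners and 5 targets, beside 4.23%. The 3 partners were NKX2-1, the lineage factor of lung and thyroid, at 57.4%, CEBPA at 60.6% and GATA4 at 54.1%. The 5 targets included KLK3, which encodes prostate-specific antigen, at 100% and SFTPC, the surfactant protein C gene, at 83.2%. H3K9me3 covered any base of 7 partners and 9 targets, beside 36.8% of all genes, and at least 50% of none, beside 1.97%. FOXA1 and FOXA2 had no covered base of either mark.

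Likeness to other genes was measured as the mean absolute difference of percentiles over the 14 libraries, from the number of peaks in the window for the factors and the percent of the gene covered for the marks. The genes most like FOXA1 were NDUFA8 (2.75 percentile points), RIOX2 (3.55) and CHD1 (3.70), beside a median of 27.4 over all genes. Those most like FOXA2 were EID2B (2.31), COQ7 (2.43) and MLDHR (2.46), beside 34.1, and those most like FOXA3 were FUT1 (4.04), HHIPL1 (6.10) and IGSF22 (6.18), beside 24.1. Within the family, FOXA1 and FOXA2 differed by 13.1 percentile points, FOXA1 and FOXA3 by 34.3 and FOXA2 and FOXA3 by 45.2. FOXA3 was thus farther from both relatives than the median gene was from them.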

How the data were processed

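Each of the 14 analysed libraries had its own peak list, called per library, and the 3 input libraries were not analysed here. The submitters' processing notes name hg38 as the build, MACS2, BWA 2.2.1, SAMtools 1.8, fastp 0.23.2, deepTools and DRAGEN, with settings not given in the sources used here. Deposited columns, as the authors wrote them, are position, score, fold enrichment (a linear ratio over background), −log10 p-value, −log10 q-value and summit offset. The smallest deposited −log10 q was 1.30.

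Only chromosomes 1 to 22 and X were used, and peaks sharing at least 1 bp were merged into sites over the lists named. A percentile is the rank of a peak's fold enrichment within its own list. Gene intervals came from a RefSeq GRCh38.p14 table without exons. Peak numbers were compared with two-sided exact permutation tests over libraries, adjusted by the Benjamini-Hochberg method over 6 tests. Functions were tested on simulated data, with Python 3.11.15, numpy 2.4.6 and pandas 2.3.3.

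The 3 genes and both lists were chosen with earlier results of these data known. Sites were described singly if called in at least 4 FOXA1 lists or both uninduced FOSL2 lists, if nearest a gene start, or if among the 3 of highest mean percentile per gene. The sites just below FOXA1 and 8.01 kb above FOXA3, and the 50 bp limit on summit gaps, were added after values were seen. Like genes were the 3 of smallest difference that lay over 200 kb away. Alternatives were other windows, the upper part of each list, lists of equal length, summit intervals, scaling to list length, bases marked in either library, wider gene intervals, a replicate block and each library left out.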

Additional observations from a re-analysis of the deposited data

How the results depend on the processing

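Of 76 alternative values for the overall results, 5 changed sign, 28 moved in size and 43 did neither by the rule used. For the doxycycline differences that rule reads the sign, but neither the size nor the test. The cause was not tested. The doxycycline difference in FOXA1 peaks, −0.5, became 0.5 in the upper part of each list, −1.5 with lists of equal length and −1.72 per 10000 peaks, and ran from −2 to 1 with each library left out. For the FOXA1 gene alone it became 0.5 in the upper part and 1 without the second uninduced library. The FOSL2 difference, −8.5, became −1 in the upper part, 2 with lists of equal length and 1.65 per 10000 peaks, and ran from −16.5 to −0.5 with each library left out. For single genes it became 0.5 (FOXA1) and 1.5 (FOXA2) with equal lists, 0.400 and 1.79 per 10000 peaks, and FOXA1 ran from −4.5 to 0.5 with each library left out. The 2 kept regions became 0 within 10 kb and 1 in the upper part, and 2 to 3 with libraries left out. The lost region became 0 within 10 kb and 0 in the upper part, and 1 to 4 with libraries left out. The gained region became 0 within 50 kb, 10 kb, the upper part, equal lists and summit intervals, and 1 to 4 with libraries left out. The FOSL2 region of uninduced cells became 0 within 10 kb, the upper part and equal lists, and 3 to 19 with libraries left out. The 18 WT regions became 9 within 50 kb, 5 within 10 kb and 7 with WT lists cut to the shortest A-Fos list, an alternative chosen after seeing the data, and 25 to 49 with libraries left out. H3K27me3 cover over the 3 genes, 3.86%, became 7.81% in either library and 0 in the upper part, and 3.86% to 7.81% with libraries left out. H3K9me3 cover, 0, became 3.17% in either library and 0 to 3.17% with libraries left out. With same-numbered libraries as a replicate block, the differences stayed −0.5 and −8.5 (paired exact permutation test, p = 1 for each, smallest possible 0.5). Deviations of same-numbered libraries over 19974 genes had a correlation of 0.0905 for FOXA1 and −0.000406 for FOSL2. The labels do not say whether same-numbered libraries shared a culture or batch, and these values cannot decide it. Depth is unknown, so a site missing from a short list was not detectable as lost or absent.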
